A study of Mus musculus with 6 samples.

Results

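The 40 genes described here encode proteins of mitosis and cytokinesis: mitotic cyclins and kinases, checkpoint and kinetochore proteins, the chromosomal passenger complex, spindle motors, the central spindle and cytokinesis machinery, condensin, and the transcription factors Foxm1 and Mybl2. They were chosen by name, with earlier results of these data known, and all 40 stand in the table of 12625 genes with counts. The data are RNA sequencing counts of 6 libraries of C2C12, an immortal mouse myoblast line whose cells leave the cell cycle and fuse into myotubes. In 3 libraries the myotubes, differentiated for 5 days, had been given recombinant mouse RANKL at 100 ng per ml for 72 h, and in the other 3 they had been given vehicle. RANKL, a cytokine best known from osteoclast formation, acts through the receptor RANK. Both groups are the same cell line, so neither stands for a range of animals, and the labels do not say whether the 3 libraries of a group came from separate cultures. The p-values therefore measure the spread between these libraries, which may be technical.

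Cells that divide build these proteins late in the cycle and destroy many of them as mitosis ends. Cyclin B with the kinase Cdk1 drives entry into mitosis, condensin compacts the chromosomes, kinetochores tie them to the spindle, and the anaphase-promoting complex (APC/C), a ubiquitin ligase, releases the cell from mitosis once the checkpoint is satisfied. Their genes share a mode of control: in resting cells the DREAM complex, which holds the MuvB proteins, sits on a promoter element called the cell cycle genes homology region (CHR) and keeps them off, and in dividing cells MuvB with B-Myb (Mybl2) and FoxM1 turns them on, often together with NF-Y bound to CCAAT boxes. Nuclei inside a myotube have left the cycle for good, whereas a C2C12 culture also keeps unfused cells. In RNA from a whole culture, more cells in the cycle and more RNA per cell cannot be told apart.

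Promoter windows were read from RefSeq on the GRCm38.p6 build, from 250 bases before to 50 bases after the start site, for 33 of the 40 genes (35 windows, since Ect2 and Prc1 have 2 starts each). The windows below run from 130 bases before to 20 bases after the start. They were chosen after the motifs were seen, all but the last for the element that most of these genes have in common. All of these windows belong to genes called higher below. They are written 5′ to 3′ along the gene, with CHR letters (TTTGAA or TTCGAA) and CCAAT boxes in capitals, where a match on the other strand reads TTCAAA or ATTGG. The last of them, Nuf2, has neither motif in the whole window.
Cdk1, chr10:69352893-69353042, minus strand: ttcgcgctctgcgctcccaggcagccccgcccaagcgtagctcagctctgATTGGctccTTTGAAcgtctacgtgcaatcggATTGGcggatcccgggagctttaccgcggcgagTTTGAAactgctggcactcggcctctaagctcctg
Ccnb2, chr9:70421535-70421684, minus strand: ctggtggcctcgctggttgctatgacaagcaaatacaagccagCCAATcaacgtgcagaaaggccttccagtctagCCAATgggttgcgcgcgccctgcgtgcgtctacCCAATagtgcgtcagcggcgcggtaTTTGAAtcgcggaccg
Cdc20, chr4:118437324-118437473, minus strand: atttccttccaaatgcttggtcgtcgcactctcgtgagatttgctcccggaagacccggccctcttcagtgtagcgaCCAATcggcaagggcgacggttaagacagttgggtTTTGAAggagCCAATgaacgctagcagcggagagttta
Bub1, chr2:127831840-127831989, minus strand: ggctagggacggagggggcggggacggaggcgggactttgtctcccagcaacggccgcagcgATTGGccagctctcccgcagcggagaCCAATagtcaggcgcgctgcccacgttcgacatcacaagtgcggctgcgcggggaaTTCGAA
Cdca8, chr4:124936898-124937047, minus strand: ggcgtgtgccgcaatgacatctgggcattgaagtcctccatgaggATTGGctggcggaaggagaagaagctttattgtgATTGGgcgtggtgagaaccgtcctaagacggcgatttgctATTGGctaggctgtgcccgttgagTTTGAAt
Cenpf, chr1:189688067-189688216, minus strand: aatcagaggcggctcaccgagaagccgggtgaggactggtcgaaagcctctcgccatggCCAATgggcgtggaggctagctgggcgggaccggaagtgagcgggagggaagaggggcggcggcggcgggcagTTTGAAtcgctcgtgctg
Kif11, chr19:37376252-37376401, plus strand: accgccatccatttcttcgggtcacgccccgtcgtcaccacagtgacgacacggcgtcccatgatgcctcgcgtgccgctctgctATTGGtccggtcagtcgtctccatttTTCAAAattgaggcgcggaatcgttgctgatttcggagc
Kif23, chr9:61946780-61946929, minus strand: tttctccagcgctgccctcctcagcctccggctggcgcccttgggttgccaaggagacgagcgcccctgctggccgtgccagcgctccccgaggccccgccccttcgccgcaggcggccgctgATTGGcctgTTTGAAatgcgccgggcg
Top2a, chr11:99024170-99024319, minus strand: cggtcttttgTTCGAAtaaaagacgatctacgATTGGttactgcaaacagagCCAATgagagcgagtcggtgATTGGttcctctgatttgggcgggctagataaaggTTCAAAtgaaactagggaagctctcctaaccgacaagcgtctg
Nuf2, chr1:169531445-169531594, minus strand: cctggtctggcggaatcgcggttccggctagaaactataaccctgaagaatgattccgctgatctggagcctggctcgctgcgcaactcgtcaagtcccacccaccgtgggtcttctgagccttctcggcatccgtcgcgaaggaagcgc

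Searched on both strands, the CHR letters TTTGAA or TTCGAA stood in 28 of the 35 windows (80.0%), against 13.6% of the 12330 windows of genes in the count table and 19.2% of all 32851 RefSeq windows. Within 50 bases of the start they stood in 25 of the 35 (71.4%), against 3.47% and 5.31%. The letters CCAAT stood in 27 windows (77.1%, against 37.4% in either background). The E2F letters (TTTCCCGC or TTTGGCGC) stood in 2 windows, those of the condensin genes Ncapd2 and Ncapg (5.71%, against 2.81% of the windows of counted genes). A 10-base NF-kB motif stood in 3 windows, of Birc5, Kif23 and Ncapd2 (8.57%, against 7.09%). These are matches of letters in a window, not measured binding, and they are a property of the genes chosen and not of the treatment. Of the 25 genes with a window that were called higher below, 21 held CHR letters, as did 5 of the 8 that were not called. The median log2 fold change was 0.45 for the 26 genes with CHR letters and 0.46 for the 7 without.

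**Figure D1:**
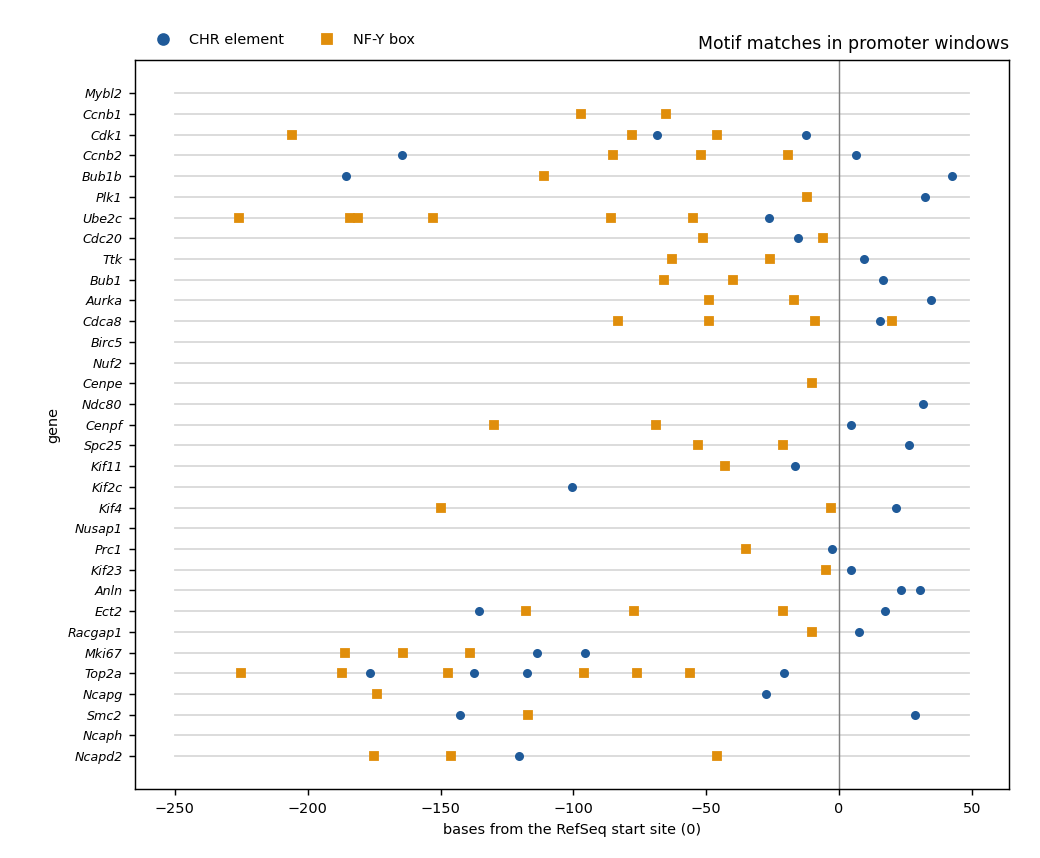
Matches to the CHR letters (circles) and to the CCAAT box bound by NF-Y (squares) in the promoter windows of 33 genes, by distance in bases from the RefSeq start site, with the first start shown where a gene has 2. Most circles lie close to 0, with squares upstream of them, and the rows of Mybl2, Birc5, Nuf2, Nusap1 and Ncaph hold neither.

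RNA of the mitosis and cytokinesis genes was higher with RANKL, with modest fold changes. In edgeR's quasi-likelihood test, adjusted over all 12625 genes with a threshold of 0.05, 31 of the 40 were called higher and 0 lower. Among all genes 5.35% were called higher and 7.5% lower. All 40 fold changes lay above 1, from 1.11 (Racgap1) to 1.55 (Nuf2), with a median of 0.45 on the log2 scale (1.36-fold) where the median over all genes was 0.00. In 34 of the 40 genes every RANKL library lay above every vehicle library, which held for 14.9% of all genes. The 9 that were not called were Mybl2, Ttk, Birc5, Incenp, Spc25, Kif2c, Ncapd2, Ncapg and Ncaph, and 7 of these had an unadjusted p under 0.05, so a missed threshold does not show that they stayed level.

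**Figure D2:**
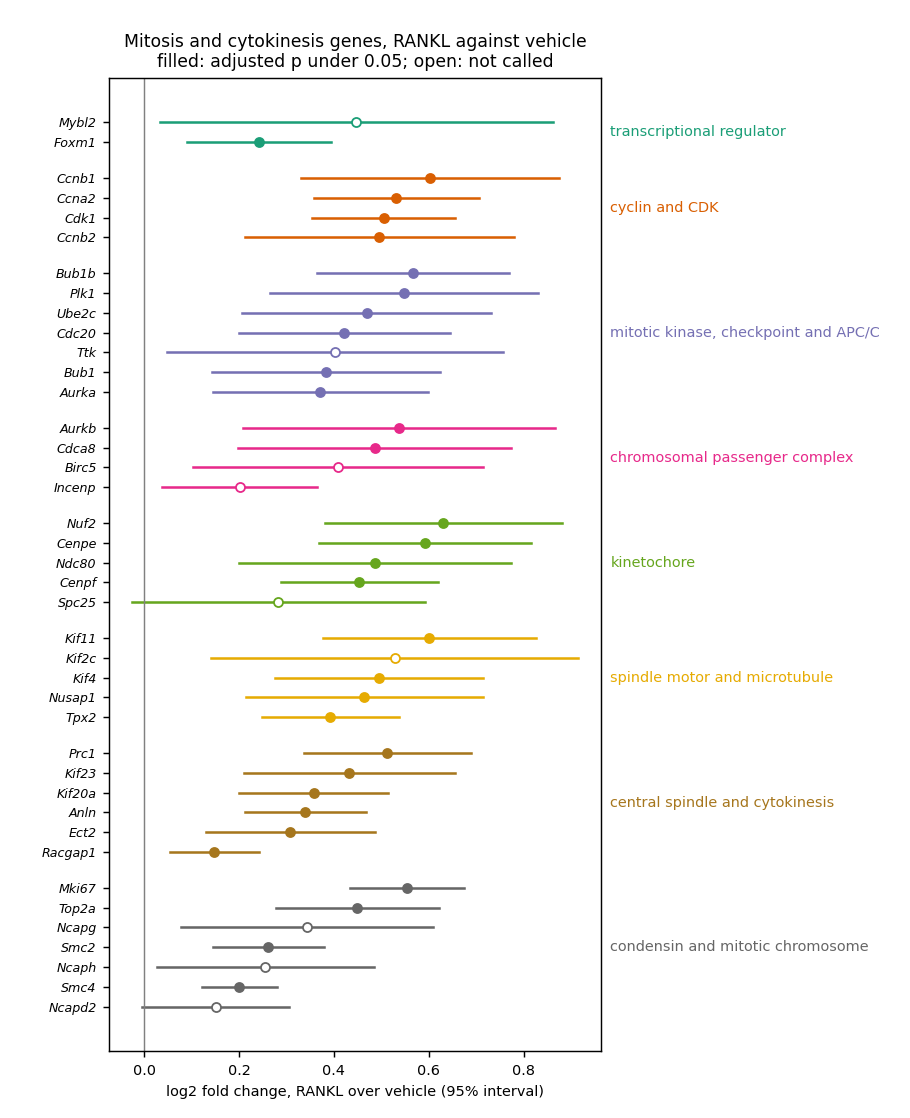
Log2 fold change (RANKL over vehicle) of the 40 genes in blocks by role, with 95% intervals from edgeR's test, 3 libraries in each group. Filled points passed an adjusted p of 0.05. Every point lies to the right of 0, and only the intervals of Spc25 and Ncapd2 reach below it.

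The count of calls depended on single libraries and the direction did not. Without vehicle replicate 2 the count of genes called higher was 18, while 2.95% of all genes were called higher. Leaving out any other library gave 23 to 30, while 3.37% to 5.91% of all genes were called higher. The median log2 fold change of the 40 genes lay between 0.35 (without RANKL replicate 1) and 0.50 (without RANKL replicate 3), and all 40 fold changes stayed above 1 in each of the 16 alternative analyses. The fit without a filter for low counts is among these 16 and repeats the main fit, since the filter removed 0 genes. In all 16, 17 genes were called: Ccna2, Ccnb1, Cdk1, Bub1b, Nuf2, Cenpe, Cenpf, Kif11, Tpx2, Kif4, Kif20a, Prc1, Anln, Smc2, Smc4, Top2a and Mki67. The other 14 called genes lost their call in 1 or more. Leaving out vehicle replicate 2 ended 13 calls, those of Foxm1, Ccnb2, Plk1, Aurka, Bub1, Cdc20, Ube2c, Aurkb, Cdca8, Ndc80, Nusap1, Kif23 and Racgap1. Leaving out vehicle replicate 1 ended those of Foxm1, Ccnb2, Aurka, Bub1, Cdc20, Ube2c, Cdca8, Racgap1 and Ect2, and leaving out vehicle replicate 3 those of Foxm1, Aurka, Bub1, Aurkb, Cdca8, Ndc80, Nusap1, Racgap1 and Ect2. Leaving out RANKL replicate 1 ended the calls of Foxm1, Ccnb2, Aurka, Bub1, Ube2c, Aurkb, Cdca8 and Racgap1, replicate 2 those of Foxm1, Ccnb2, Aurka, Aurkb and Ndc80, and replicate 3 those of Aurka, Bub1 and Racgap1. Calls were also gained: Ttk and Ncapg without vehicle replicate 1, Kif2c with DESeq2 and without vehicle replicate 3 or RANKL replicate 3, Birc5 without RANKL replicate 3 and Spc25 without RANKL replicate 1.

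The mitotic cyclins and their kinase were all called higher, 4 of 4. Cdk1, the kinase that starts mitosis, stood at 10.2, 9.56 and 9.07 CPM (counts scaled to library size) in the vehicle libraries and at 13.9, 13.6 and 13.5 in the RANKL libraries. The groups did not overlap, and the RANKL libraries were close to each other (log2 fold change 0.51 ± 0.07 (SE), adjusted p = 0.000361 by edgeR). Ccna2, cyclin A2, which acts from S phase into early mitosis, had 12.4, 11.3 and 13.6 CPM in the vehicle libraries and 19.7, 17.9 and 16.4 in the RANKL libraries, a 1.45-fold difference (95% interval 1.28 to 1.63, adjusted p = 0.000706). Ccnb1, cyclin B1, had the largest change of these, from 4.79, 4.21 and 4.71 CPM to 8.38, 6.44 and 5.95 (log2 fold change 0.60 ± 0.13, adjusted p = 0.00619). RANKL replicate 1 was the highest library for cyclin A2 and for both B cyclins. Ccnb2, cyclin B2, averaged 4.14 ± 0.435 CPM under vehicle and 5.80 ± 1.01 under RANKL (SD, n = 3 libraries each, as in all pairs of means that follow). Its adjusted p was 0.0240 by edgeR, and it was not called without vehicle replicate 1 or 2 or RANKL replicate 1 or 2.

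Of the 2 transcription factors 1 was called higher, though both fold changes lay above 1. Foxm1 had 11.4, 11.6 and 11.5 CPM in the vehicle libraries, nearly one value, and 14.7, 13.3 and 12.8 in the RANKL libraries. It rose by 0.24 ± 0.07 on the log2 scale. The adjusted p by edgeR was 0.0367 and ran from 0.0192 to 0.126 over the alternatives, of which 9 of 16 called it. Mybl2, B-Myb, was the scarcest of the 40 genes, with 0.926, 0.902 and 0.812 CPM under vehicle and 1.19, 1.29 and 1.12 under RANKL. The groups did not overlap, yet its log2 fold change of 0.45 ± 0.19 did not pass (adjusted p = 0.150), and no alternative called it.

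Of the mitotic kinases, checkpoint proteins and APC/C partners, 6 of 7 were called higher. Plk1, the polo-like kinase of spindle assembly and mitotic exit, had 5.33, 4.75 and 5.15 CPM under vehicle and 9.13, 6.99 and 6.07 under RANKL, with RANKL replicate 1 highest (log2 fold change 0.55 ± 0.13, adjusted p = 0.0137 by edgeR, not called without vehicle replicate 2). Bub1b, BubR1 of the spindle checkpoint, went from 5.38, 5.14 and 6.09 CPM to 8.44, 7.61 and 8.57, here with the RANKL libraries level with each other (log2 fold change 0.57 ± 0.09, adjusted p = 0.00136). Its relative Bub1, a checkpoint kinase at the kinetochore, rose from 4.09 ± 0.263 to 5.33 ± 0.551 CPM (adjusted p = 0.0365 by edgeR) and was called in 8 of 16 alternatives. Aurka, the kinase of the spindle poles, rose 1.29-fold (95% interval 1.11 to 1.51), a call kept in 9 of 16. Ttk (Mps1), the kinase at the top of the checkpoint, spread widely under vehicle, at 3.01, 1.86 and 2.33 CPM. Its RANKL values of 3.42, 3.29 and 2.87 overlapped them, and its log2 fold change of 0.40 ± 0.17 did not pass (adjusted p = 0.129 by edgeR).

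Cdc20, which the checkpoint holds and which switches on the APC/C, averaged 7.25 ± 1.06 CPM under vehicle and 9.72 ± 0.843 under RANKL, without overlap, a 1.34-fold difference (95% interval 1.15 to 1.56, adjusted p = 0.0156 by edgeR, not called without vehicle replicate 1 or 2). Ube2c, the ubiquitin-conjugating enzyme of the APC/C, rose by 0.47 ± 0.12 on the log2 scale, from 5.64 ± 0.793 to 7.81 ± 1.18 CPM (adjusted p = 0.0213 by edgeR, not called without vehicle replicate 1 or 2 or RANKL replicate 1). Its exons share 592 bases with those of the abundant muscle gene Tnnc2 on the opposite strand (1052 ± 46.0 CPM under vehicle, log2 fold change -0.01 ± 0.05). Strand use in counting was not given in the sources used here, so reads of that stretch cannot be told apart.

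In the chromosomal passenger complex, which corrects faulty attachments and then marks the cleavage plane, 2 of 4 members were called higher. Its kinase Aurkb had 3.52, 2.43 and 2.60 CPM under vehicle and 4.80, 3.88 and 3.77 under RANKL, so the lowest RANKL library stood just above vehicle replicate 1 (log2 fold change 0.54 ± 0.15, adjusted p = 0.0332 by edgeR, called in 12 of 16 alternatives). Cdca8 (borealin) rose from 3.70 ± 0.192 to 5.18 ± 0.986 CPM (adjusted p = 0.0283 by edgeR, called in 12 of 16). Birc5 (survivin) had 3.91, 3.94 and 4.44 CPM under vehicle and 6.71, 5.17 and 4.35 under RANKL. RANKL replicate 1 was the highest while replicate 3 lay among the vehicle values, and the log2 fold change of 0.41 ± 0.14 did not pass (adjusted p = 0.0773). Incenp, the scaffold of the complex, differed by 0.20 ± 0.08 on the log2 scale (adjusted p = 0.0992).

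Of 5 kinetochore genes 4 were called higher. Nuf2, a subunit of the NDC80 complex that grips microtubules, had the largest fold change of all 40 genes: 4.07, 3.31 and 3.98 CPM under vehicle against 6.50, 5.38 and 5.74 under RANKL (0.63 ± 0.12 on the log2 scale, adjusted p = 0.00270 by edgeR). Ndc80 itself went from 3.14, 2.58 and 2.33 to 3.87, 3.79 and 3.65 CPM (0.49 ± 0.13, adjusted p = 0.0275, called in 12 of 16). Spc25, another subunit of the same complex, was not called, with 4.09, 3.43 and 4.63 CPM under vehicle and 4.09, 5.91 and 4.89 under RANKL. It was the only one of the 40 whose value in RANKL replicate 1 did not exceed all vehicle libraries. Its 95% interval ran from -0.03 to 0.59 on the log2 scale, and whether it differs from that of Nuf2 was not tested. The large kinetochore proteins Cenpe, a motor that brings chromosomes to the equator, and Cenpf rose 1.51-fold (95% interval 1.29 to 1.76) and 1.37-fold (1.22 to 1.54), and Cenpe stood at 9.86 ± 1.25 CPM under vehicle and 14.8 ± 2.04 under RANKL.

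Of 5 spindle genes 4 were called higher. Kif11 (Eg5), the motor that pushes the poles apart, had 7.15, 6.70 and 7.88 CPM under vehicle and 12.5, 11.0 and 9.33 under RANKL (0.60 ± 0.11 on the log2 scale, adjusted p = 0.00182 by edgeR). Kif4, a chromosome-bound kinesin, was almost constant under vehicle (4.56 ± 0.0513 CPM) and reached 6.98, 6.55 and 5.71 under RANKL, a 1.41-fold difference. Tpx2, which activates Aurora A on the spindle, rose from 12.6 ± 0.392 to 16.6 ± 1.10 CPM, and Nusap1, a microtubule bundling protein, from 4.93 ± 0.794 to 6.82 ± 0.547. Kif2c (MCAK), a kinesin that takes microtubules apart, had a point estimate of 0.53 ± 0.18 but scattered in both groups, with 3.22, 3.76 and 4.79 CPM under vehicle, RANKL replicate 1 at 7.40, and means of 3.92 ± 0.801 and 5.61 ± 1.57, and it did not pass in edgeR (adjusted p = 0.0711, against 0.0466 by DESeq2).

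All 6 central spindle and cytokinesis genes were called higher. Prc1, which bundles the antiparallel microtubules of the midzone, had the largest fold change of them: 17.9, 14.7 and 14.9 CPM under vehicle and 25.0, 20.8 and 22.1 under RANKL (0.51 ± 0.08 on the log2 scale, adjusted p = 0.00103 by edgeR). Kif20a and Kif23, the midzone kinesins MKLP2 and MKLP1, rose 1.28-fold and 1.35-fold, and Anln (anillin), which organises the contractile ring, went from 26.5, 24.3 and 25.7 to 35.1, 30.0 and 31.7 CPM. Ect2, the exchange factor that turns on RhoA at the cleavage furrow, rose from 9.24 ± 0.923 to 11.4 ± 0.475 CPM (adjusted p = 0.0244 by edgeR, called in 12 of 16 alternatives). Racgap1, the partner of Kif23 in the centralspindlin complex, had the smallest fold change of the 40 genes, at 42.9, 41.8 and 40.6 CPM under vehicle and 48.1, 44.1 and 46.6 under RANKL (0.15 ± 0.04 on the log2 scale, adjusted p = 0.0391, called in 8 of 16). The groups of Racgap1 do not overlap, and its 95% interval on the log2 scale, 0.05 to 0.24, ends below that of Prc1, which starts at 0.34. The difference between these 2 genes was not tested.

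Among condensin and mitotic chromosome genes 4 of 7 were called higher. Mki67 (Ki-67, a coat of mitotic chromosomes and the usual marker of cycling cells) and Top2a (topoisomerase II alpha, which untangles sister chromatids) were both among the 4. Mki67 had 37.6, 35.4 and 33.4 CPM under vehicle and 56.2, 48.7 and 51.4 under RANKL, and its adjusted p of 1.9e-05 by edgeR was the smallest of the 40. Top2a had 32.8, 29.2 and 29.3 against 48.3, 38.3 and 37.9 CPM, again with RANKL replicate 1 highest (log2 fold change 0.45 ± 0.08). The ATPase core of condensin, Smc2 and Smc4, rose from 18.1 ± 0.519 to 21.7 ± 0.688 CPM (Smc2) and 1.15-fold (Smc4, 95% interval 1.09 to 1.21), the latter from 51.1, 49.2 and 49.3 CPM to 57.5, 57.9 and 56.6. The 3 other subunits among the 40 genes, Ncapd2, Ncapg and Ncaph, differed by 0.15 ± 0.07, 0.34 ± 0.12 and 0.26 ± 0.11 on the log2 scale. These did not pass (adjusted p = 0.195, 0.0864 and 0.135 by edgeR).

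**Figure D3:**
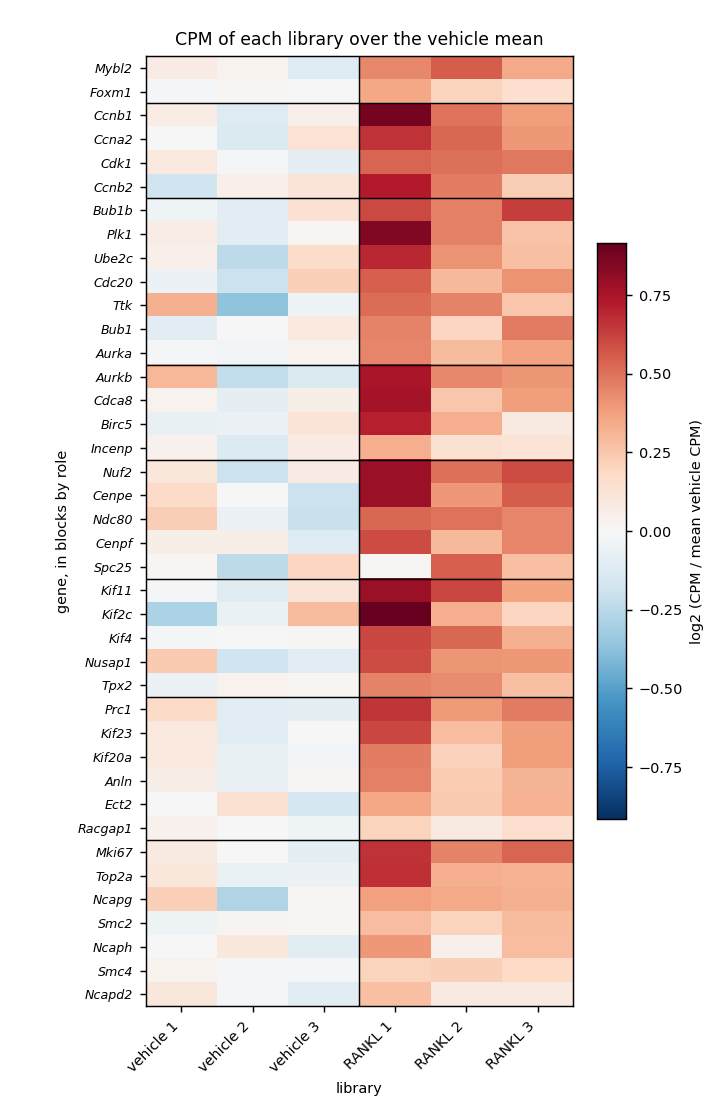
Log2 ratio of each library's CPM to the mean vehicle CPM of the gene, for 40 genes in blocks by role (rows) and 6 libraries (columns), red for higher and blue for lower. The RANKL columns are red in nearly every row, and RANKL 1 is the darkest column, with a median of 0.57 against 0.37 and 0.34 for RANKL 2 and 3.

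The RANKL libraries did not carry the rise to the same extent. RANKL replicate 1 was the highest of all 6 libraries for 34 of the 40 genes, and RANKL replicates 2 and 3 for 3 each. Of the 40 genes, 39 exceeded every vehicle library in RANKL replicate 1, 38 in replicate 2 and 36 in replicate 3. Without RANKL replicate 1 the count called higher was 24 of 40, while 5.14% of all genes were called higher. Among the vehicle libraries, replicate 2 was the lowest for 22 genes, against 8 for replicate 1 and 10 for replicate 3. For these counts by highest, lowest or exceeded library no share over all genes was computed. Summed over the 40 genes, the vehicle libraries held 457, 429 and 437 CPM and the RANKL libraries 621, 545 and 551, which is 0.0425% to 0.0448% and 0.0553% to 0.0625% of all counts. RANKL replicate 1 also had the highest summed CPM of the fibroblast marker list (5708, against 5247 and 5132 in RANKL replicates 2 and 3), most of it from the collagen gene Col3a1 (4519, 4158 and 4072 CPM). Among the RANKL libraries it was highest for the myotube list too (39024, against 37439 and 37803 CPM), and for the macrophage and endothelial lists. It was lowest for the myoblast list (2310, against 2366 and 2350 CPM). The part of these sums in the result was not tested.

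The deposited log2 values were read as a level per gene length (RPKM), but the lengths they imply are not those of the annotation, and the order of the genes depends on which is used. Under vehicle the 40 genes ran from 0.253 ± 0.0162 RPKM for Mybl2 to 13.6 ± 0.380 for Racgap1, with a median of 2.24 RPKM, against a median of 9.33 over all genes, and 38 of the 40 lay below that median. Per kilobase of annotated exon, an alternative added after seeing the data, they ran from 0.190 ± 0.0129 CPM for Mybl2 to 9.57 ± 0.208 for Smc4, with a median of 1.38 against 5.99 over all genes, and 39 of the 40 lay below it. By either length Racgap1 and Smc4 were the highest and Mybl2 the lowest, although the order of Racgap1 (5.90 ± 0.164 CPM per kilobase of exon) and Smc4 (12.2 ± 0.266 RPKM) was not the same. The places of the others moved by up to 15: Ube2c stood at place 3 by RPKM (6.12 ± 0.852) and at place 15 per kilobase of exon (2.17 ± 0.305 CPM). No finer order is given for that reason. For comparison, skeletal actin, Acta1, stood at 3865 RPKM and Myog, the transcription factor of myoblast differentiation, at 365. Each of the 40 genes had between 30 and 2166 counts in a library, and counting error weighs most on Mybl2, Ttk, Ndc80 and Aurkb.

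**Figure D4:**
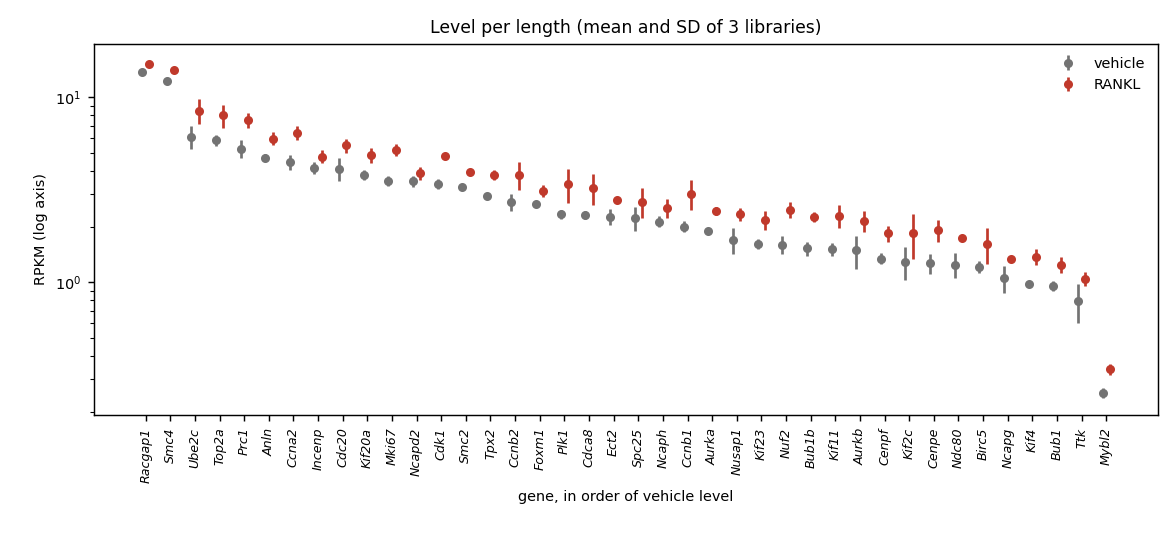
Level per length (RPKM as read from the deposited log2 values, log axis) of the 40 genes in order of their vehicle level, as mean and SD of 3 vehicle (grey) and 3 RANKL (red) libraries. The red point lies above the grey one in all 40 genes, and only Racgap1 and Smc4 exceed 10 RPKM under vehicle. The order along the axis holds for the lengths implied by these values only.

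All 40 are protein-coding genes spread over the genome in GENCODE M21 on mm10: Mki67, for example, lies on chromosome 7 (135689784 to 135716361, minus strand), Cdk1 on chromosome 10 (69335146 to 69352938), Nuf2 on chromosome 1 (169497934 to 169531464) and Racgap1 on chromosome 15 (99620496 to 99651656). Some share exon bases with neighbours: exons of 3 members overlap another gene on the same strand (Foxm1, Ncapd2 and Top2a) and exons of 10 overlap one on the opposite strand, the longest being those of Kif20a with Cdc23 (1271 bases), Ncapg with Lcorl (944 bases), Prc1 with Rccd1 (911 bases), Kif4 with Pdzd11 (832 bases), Ube2c with Tnnc2 (592 bases) and Ccna2 with Exosc9 (510 bases). Cdc23, Lcorl, Rccd1, Pdzd11 and Exosc9, named for their overlap, were not called (log2 fold changes 0.07 ± 0.04, -0.09 ± 0.07, -0.01 ± 0.12, -0.03 ± 0.05 and 0.11 ± 0.05). Of the 27 members free of any such overlap, 20 were called higher, against 31 of all 40 members and 5.35% of all genes. Whether overlap bears on the calls was not tested. Ccnb1, Ccnb2 and Kif4 each have a named pseudogene, and the treatment of reads shared with it was not given in the sources used here.

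Of 70 other mitosis genes, all measured, 19 were called higher (27.1%, against 5.35% of all genes) and 0 lower. Of the 70 log2 fold changes 66 lay above 0, and the median was 0.25. Depdc1a, a cell division gene, had 0.875, 0.691 and 0.921 CPM under vehicle and 1.99, 1.76 and 1.72 under RANKL, a 2.19-fold difference (adjusted p = 0.00133 by edgeR). Hmmr and Aspm, which organise spindle poles, rose 1.43-fold and 1.38-fold, and Espl1 (separase), which cuts cohesin at anaphase, 1.34-fold (not called without vehicle replicate 2 or 3). Casc5, the kinetochore scaffold Knl1, Mad2l1, a checkpoint protein, and Cenpa, the centromeric histone, differed by 0.23 ± 0.12, 0.24 ± 0.08 and 0.37 ± 0.12 on the log2 scale, which did not pass (adjusted p = 0.234, 0.0570 and 0.0535). The count of 19 was 8 without vehicle replicate 1, 4 without vehicle replicate 2, 11 without vehicle replicate 3 and 7 when RANKL replicate 1 was left out. In those fits, in the same order, 3.37%, 2.95%, 3.58% and 5.14% of all genes were called higher.

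Of 40 genes of S-phase entry and DNA replication, all measured, 6 were called higher (15%, against 5.35% of all genes) and 0 lower. Of the 40 log2 fold changes 34 lay above 0, and the median was 0.15. Mcm6 and Mcm2, subunits of the replicative helicase, rose by 0.27 ± 0.05 and 0.26 ± 0.07 on the log2 scale, the latter not called without vehicle replicate 1 or 2 or RANKL replicate 1. Tk1, thymidine kinase, rose from 2.49 ± 0.131 to 3.72 ± 0.339 CPM (adjusted p = 0.00832 by edgeR), and Uhrf1, which maintains DNA methylation, 1.37-fold (not called without vehicle replicate 2 or 3 or RANKL replicate 1 or 2). Pcna, the sliding clamp, had 36.3 ± 3.24 and 39.3 ± 1.75 CPM and did not pass (log2 fold change 0.11 ± 0.06, adjusted p = 0.231). The count of 6 became 3 when vehicle replicate 1 was left out, 2 when vehicle replicate 2 or RANKL replicate 1 was, and 11 with scaling to library totals. Of all genes, 3.37% were called higher without vehicle replicate 1 and 2.95% without vehicle replicate 2. The share was 5.14% without RANKL replicate 1 and 8.48% with library totals. Whether this list and the mitosis genes differ in their change was not tested.

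Of 14 subunits of DREAM, MuvB and NF-Y, 1 was called higher (7.14%, against 5.35% of all genes) and 0 lower, and their median log2 fold change was 0.02. That 1 was Lin9, a MuvB subunit, at 5.25 ± 0.189 CPM under vehicle and 6.56 ± 0.467 under RANKL (adjusted p = 0.0389 by edgeR), which was called in 8 of 16 alternatives and in none of the 3 that left out a vehicle library. Of 16 measured cell cycle brakes 2 were called higher (12.5%, against 5.35% of all genes) and 1 lower (6.25%, against 7.5%). The lower count was 0 without vehicle replicate 2 and 2 without RANKL replicate 3 or with the length or GC trend removed. The lower one was Cdkn1a (p21), the abundant inhibitor of cyclin-dependent kinases in myotubes, at 2369 ± 25.6 CPM under vehicle and 2159 ± 35.4 under RANKL (adjusted p = 0.0130). It fell by 0.13 ± 0.03 on the log2 scale and was not called without vehicle replicate 2. Trp53 (p53) rose 1.14-fold and Gadd45b, a stress-induced gene that is also a target of NF-kB, 1.24-fold. The retinoblastoma gene Rb1 and the inhibitor Cdkn1b (p27) differed by -0.04 ± 0.03 and 0.05 ± 0.05 on the log2 scale, which did not pass. Of 10 cohesin genes, which dividing and resting cells both use, edgeR, DESeq2, limma-voom and limma-trend called 0 with their own scaling, and edgeR with library totals called 1. In edgeR 1 had an unadjusted p under 0.05, Smc3 (log2 fold change 0.09 ± 0.03, adjusted p = 0.107).

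**Figure D5:**
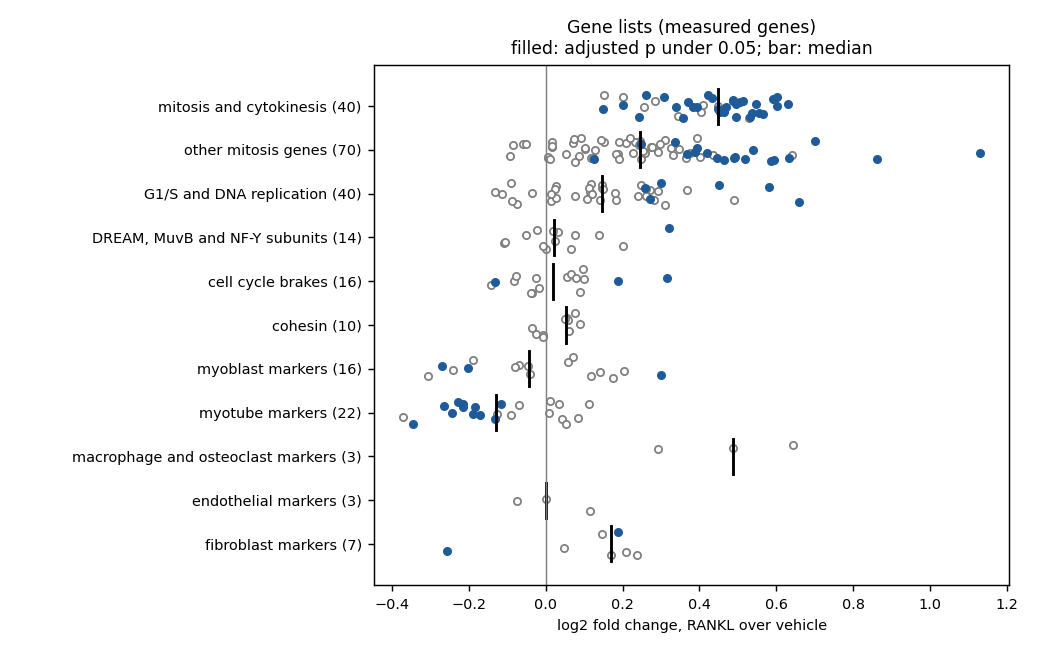
Log2 fold changes (RANKL over vehicle) of the 40 mitosis and cytokinesis genes and of 10 other lists, 1 point per measured gene, filled where the adjusted p was under 0.05, with a bar at each median. The medians are 0.45 for mitosis and cytokinesis, 0.25 for other mitosis genes and 0.15 for replication.

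The identity of the cultures was checked with marker lists. Myotube markers were abundant in all libraries (39989 to 43988 CPM in sum under vehicle and 37439 to 39024 under RANKL). Of 22, 11 were called lower (50%, against 7.5% of all genes) and 0 higher (1 with library totals, with the GC trend removed and without RANKL replicate 3). Myh8 fell by 0.35 ± 0.05, Cacna1s by 0.22 ± 0.03, Myh2 by 0.22 ± 0.03 and Acta1 by 0.19 ± 0.03 on the log2 scale. Without vehicle replicate 2, 7 were called lower, when 537 of all genes were. Myog had a log2 fold change of 0.01 ± 0.03. Of 16 measured myoblast markers 1 was called higher (6.25%, against 5.35% of all genes) and 2 lower (12.5%, against 7.5%), or 4 lower with the length trend removed. Cd34 rose 1.23-fold, Notch1 and Itga7 fell, and Pax7 (0.729 ± 0.0854 CPM under vehicle), Myf5, Myod1 and Ccnd1 did not pass, with log2 fold changes of -0.31 ± 0.24, 0.14 ± 0.07, -0.07 ± 0.04 and -0.04 ± 0.09. The summed level of the myoblast list was 2580 to 2681 CPM under vehicle and 2310 to 2366 under RANKL. Most of it was Itga7 (1995 ± 38.2 CPM under vehicle and 1731 ± 49.1 under RANKL), so the sum mainly follows that gene and does not measure the number of unfused cells. Of the 16 log2 fold changes, 7 lay above 0 and 9 below. Of 7 measured fibroblast markers 1 was called higher (14.3%, against 5.35% of all genes) and 1 lower (14.3%, against 7.5%). The higher one was Col3a1 (1.14-fold, not called without vehicle replicate 2) and the lower one Pdgfrb (by 0.26 ± 0.03 on the log2 scale). The count called higher was 3 with library totals or the length trend removed, where 8.48% and 6.26% of all genes were called higher. It was 2 with the GC trend removed (5.30% of all genes) and with the replicate number as a block (5.78%). Leaving out vehicle replicate 1, RANKL replicate 1 or RANKL replicate 3 also gave 2. In those fits, in the same order, 3.37%, 5.14% and 5.91% of all genes were called higher. The sum of the fibroblast markers, mostly Col3a1 (3728 ± 103 CPM under vehicle), was 4696 to 4950 CPM under vehicle and 5132 to 5708 under RANKL. Only 3 of 15 macrophage and osteoclast markers and 3 of 8 endothelial markers were measured, and the others, with Ptprc, Adgre1 and Csf1r and with Pecam1, Cdh5 and Kdr among them, are not analysed here. The macrophage markers summed to 4.66 to 5.31 CPM under vehicle and 5.82 to 6.95 under RANKL, and the endothelial ones to 2.95 to 3.58 and 2.82 to 3.53. For both lists edgeR, DESeq2, limma-voom and limma-trend called 0, with 1 macrophage marker, Cd14, and 0 endothelial markers at an unadjusted p under 0.05 in edgeR. Egfl7, the endothelial marker with the smallest p, differed by 0.11 ± 0.22 on the log2 scale. What part any of these markers has in the change of the mitosis genes was not tested.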

How the data were processed

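RNA of 6 C2C12 libraries (3 RANKL, 3 vehicle) was read in paired-end reads on an Illumina HiSeq, per the labels' protocols. The submitters' processing notes name FastQC, STAR, edgeR and the build mm10. The read counter, annotation and strand use were not given in the sources used here. A deposited table of raw counts holds 12625 genes and 4708 blank lines without values, which were left out. The other table holds log2 values that the authors deposited without a stated unit. For 10640 genes with at least 100 counts in every library, they differed from log2 CPM by a constant per gene and a factor per library, with a median deviation of 6.02e-05. The constant was read as gene length, which this does not test: the implied lengths have a median of 3.06 kb, against 4.72 kb of annotated exon, and a Spearman correlation with it of 0.77 across genes. In every gene the third-highest library had at least 0.504 CPM, so low genes had been removed before deposit.

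Library totals lay between 32732604 and 39677999 counts, and 3 counts in a library correspond to 0.0756 to 0.0917 CPM. The first principal component of log2 CPM (56.0% of the variance) separated the groups. The test was edgeR 4.0.16 in R 4.3.3 on all genes (TMM scaling, filterByExpr, which removed 0 genes, quasi-likelihood F test, Benjamini-Hochberg adjustment). The SE is the log2 fold change divided by the square root of F, and the 95% intervals use the test's degrees of freedom. On simulated counts for 12625 genes of this comparison, 86.0% of changes of log2 0.4 and 100% of log2 1 were recovered, and 6.06% of calls were unchanged genes. The changed genes were drawn at random from all those with a mean of at least 1 CPM. Of the 40 members 38 lay below the median RPKM of all genes, so these rates need not hold for them. Alternatives were DESeq2 1.42.0, limma 3.58.1 (voom on counts, and trend on the log2 values), other scalings and filters, gene length or GC trends removed, a replicate block, and each library left out. The members and lists were chosen with earlier results of these data known. All 40 members are named. From each other list up to 4 called genes with the smallest p are named, or 1 where none was called, plus a fixed few, such as Cdkn1a, Myog and Pcna. The printed promoters were chosen to show genes of different roles, after the motifs were seen. Replicate numbers were not used to pair the libraries: same-numbered libraries' deviations from their group means correlated by only 0.02 to 0.07. Whether same-numbered libraries share a culture or batch is not known from this.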

Additional observations from a re-analysis of the deposited data

How the results depend on the processing

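Of the 40 genes, the 31 called higher became 27 with DESeq2 and with limma-trend and 28 with the GC trend removed. Of all genes, 4.24%, 4.18% and 5.30% were called higher in these fits, in the same order. When one library was left out the count was 18 to 30, with 2.95% to 5.91% of all genes called higher. It remained 31 in the other 7 alternatives, with 5.20% to 8.48% of all genes called higher. The fit without a filter, among those 7, could not differ from the main fit, since the filter removed 0 genes. No member was called lower in any of the 16, and no fold change reversed. Scaling to library totals gave 1070 higher and 626 lower genes in all, so that 63.1% of calls were higher in place of 41.7%, but it moved the median of all genes by only log2 0.03 and left 31 members called. Leaving out one library gave 373 to 746 higher and 537 to 880 lower genes in all, 4 to 21 of the other mitosis genes, and 2 to 7 higher and 0 to 1 lower replication genes. The replication count was 11 with library totals and 2 with limma-trend. With the replicate block 31 members were called, and 730 genes higher and 1008 lower in all. The block was not used in the main fit, since the deviations of same-numbered libraries were barely correlated. The causes of these shifts were not tested. For the genes named from other lists, the same alternatives were chosen after seeing the data. Of these genes only Ccnd1, Myog and Egfl7, none of them called, changed sign, with log2 fold changes from -0.14 to 0.045 for Ccnd1, -0.011 to 0.035 for Myog and -0.059 to 0.32 for Egfl7 when one library was left out, and -0.025 for Myog with the length trend removed. Depth limits the scarcest members: the lowest count in a library was 30.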
